A study of Homo sapiens with 7 samples.

Results

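miR-221 and miR-222 are the products of a pair of neighbouring miRNA hairpins on the X chromosome, MIR221 and MIR222. They were followed as the 4 mature miRNAs hsa-miR-221-3p, hsa-miR-221-5p, hsa-miR-222-3p and hsa-miR-222-5p (hsa- is left out from here on), taken by name from the 2652 mature miRNAs counted in each library, and all 4 were present. The libraries are small RNA sequencing of HepG2, an established human liver cancer line. One library, labelled WT, came from untreated cells (0 h), and 6, labelled TEAD1 knockdown, came from cells given siRNA 1 or siRNA 2 against TEAD1, through which Hippo signalling reaches DNA, and collected after 24, 36 or 48 h. A given siRNA was sequenced once per time, so the 2 libraries of a time received different siRNAs, and nothing in the labels says that libraries came from separate cultures. A library of cells given a control siRNA is not among those analysed here, so effects of transfection, culture time and TEAD1 loss cannot be told apart. TEAD1 is an mRNA and is not measured in small RNA counts.

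A miRNA hairpin is cut by Drosha and then by Dicer into a short duplex, of which usually 1 strand, the guide, is kept by an Argonaute protein while the other, the passenger, is degraded. The guide finds its target mRNAs mainly through its seed, a short stretch near its 5′ end. miR-221-3p and miR-222-3p are guides that share a seed and are known to repress the cell cycle inhibitors CDKN1B (p27) and CDKN1C (p57), and also KIT and TIMP3. They are often raised in hepatocellular carcinoma and other tumours, for which they are called oncomiRs. The pair is thought to be transcribed as 1 precursor.

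The mature sequences are shown because the seed groups them. They are the sequences of the deposited count files, written 5′ to 3′ with the seed (bases 2 to 8) in capitals.
hsa-miR-221-3p: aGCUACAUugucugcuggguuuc
hsa-miR-222-3p: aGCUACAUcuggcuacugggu
hsa-miR-221-5p: aCCUGGCAuacaauguagauuu
hsa-miR-222-5p: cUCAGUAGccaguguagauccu
The 3p arms share the seed GCUACAU, and no other of the 2652 miRNAs has it. They are identical over their first 8 bases and align at 18 positions, and they are 23 and 21 bases long. The 5p arms have different seeds. That of miR-221-5p occurs in 1 other miRNA, miR-8073, which had 1 read in the untreated library and 0 in the others. No member has the same sequence as another counted miRNA, contains one or lies within one.

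The hairpins follow, from RefSeq on GRCh38.p14, with both counted arms in capitals, the 5p arm first. They are shown because the results turn on the balance of the arms within each.
MIR221: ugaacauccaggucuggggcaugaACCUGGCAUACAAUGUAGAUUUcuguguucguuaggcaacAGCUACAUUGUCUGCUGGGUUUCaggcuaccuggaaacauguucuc
MIR222: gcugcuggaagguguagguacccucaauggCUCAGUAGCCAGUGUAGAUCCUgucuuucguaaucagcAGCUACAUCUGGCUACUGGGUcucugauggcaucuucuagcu
Both lie on the minus strand of chromosome X, MIR221 at chrX:45746157-45746266 and MIR222 at chrX:45747015-45747124, with 748 bases between them. MIR222 comes first in the direction of transcription. In GENCODE 29, also on GRCh38, both lie in the intron of a 2-exon transcript of the long noncoding RNA MIR222HG, MIR221 56 bases upstream of exon 2. Within MIR221 the 5p arm is at chrX:45746221-45746242 and the 3p arm at chrX:45746180-45746202. In MIR222 they are at chrX:45747073-45747094 and chrX:45747036-45747056. The RefSeq table of mature miRNAs matched 3 of the 4 members by name, and miR-221-5p was placed by its sequence in the hairpin. The letters GGAATG, the core of the motif TEAD factors bind, or their reverse complement CATTCC do not occur in the 300 bases around the MIR222HG start (250 before, 50 after), and 14.0% of 35116 such promoters hold them.

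Libraries held 13134601 to 15591345 reads. Of these, 6171851 were assigned to a miRNA in the untreated library (43.1%) and 1920832 to 3739729 in the siRNA-treated ones (13.4% to 26.5%). Levels are given as CPM (counts per 1000000 miRNA reads after TMM scaling), and intervals are 95% exact Clopper-Pearson intervals of the reads, which cover counting error only. Ligation and amplification favour some sequences, so levels of different miRNAs are compared as read counts, not as molecules. The libraries of 36 h stood apart from each other: for both arms of miR-222 and the ratios built on them, siRNA 1 at 36 h lay near the 24 h libraries and siRNA 2 at 36 h near the 48 h libraries, and other abundant miRNAs such as miR-99a-5p (29628 and 59596 CPM at 36 h) split likewise. Whether a library was exchanged was not tested. Results that rest on the 36 h pair are therefore given with and without it, taking the labels as they stand. Of the 5 hepatocyte markers miR-148a-3p (13919 to 25518 CPM) and miR-192-5p (1709 to 3064 CPM) were abundant, miR-194-5p stood at 68.6 to 135.6 CPM and miR-885-5p was at 0 in all 7 libraries. miR-122-5p was low, at 32.2 to 47.6 CPM in untreated cells and siRNA 1 at 24 and 36 h and at 3.76 to 6.60 CPM in the other 4 libraries.

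In untreated cells the cluster was moderately abundant and dominated by its guides. miR-221-3p stood at 3481 CPM (18677 reads, interval 3432 to 3531), the 33rd most counted miRNA. miR-222-3p followed at 2797 CPM (15005 reads, 2752 to 2842), in place 44. The passengers were lower: miR-221-5p stood at 430.4 CPM (2309 reads, 413 to 448) and miR-222-5p at 17.7 CPM (95 reads, 14.3 to 21.7). This order of the 4 members held in 4 of the 7 libraries. miR-222-3p lay above miR-221-3p in the other three, which were both 48 h libraries and siRNA 2 at 36 h. Together the 4 made up 0.585% of miRNA reads in untreated cells and 0.613% to 1.01% after siRNA treatment.

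miR-221-3p was highest at 24 h on the TMM scale. Under siRNA 1 the 24, 36 and 48 h libraries held 5450, 3722 and 3894 CPM, and under siRNA 2 they held 4998, 3014 and 3563 CPM. Both 24 h libraries lay above the other 5, and 5 of the 6 siRNA-treated libraries lay above untreated, the exception being siRNA 2 at 36 h. Relative to 24 h, the 48 h level was 0.71 times as high with either siRNA on the TMM scale. The fall was smaller with total miRNA counts as the scale and larger with all reads, as given below.

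miR-222-3p was instead higher at 48 h than at 24 h. Under siRNA 1 the successive times gave 2615, 1954 and 5060 CPM, and under siRNA 2 they gave 2024, 4090 and 3837 CPM. In CPM both 48 h libraries and siRNA 2 at 36 h lay above untreated, and both 24 h libraries and siRNA 1 at 36 h lay below it. From 24 to 48 h the level was 1.93 times as high with siRNA 1 and 1.90 times with siRNA 2. It passed from place 41 and 46 among all miRNAs at 24 h to place 26 and 30 at 48 h.

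**Figure D1:**
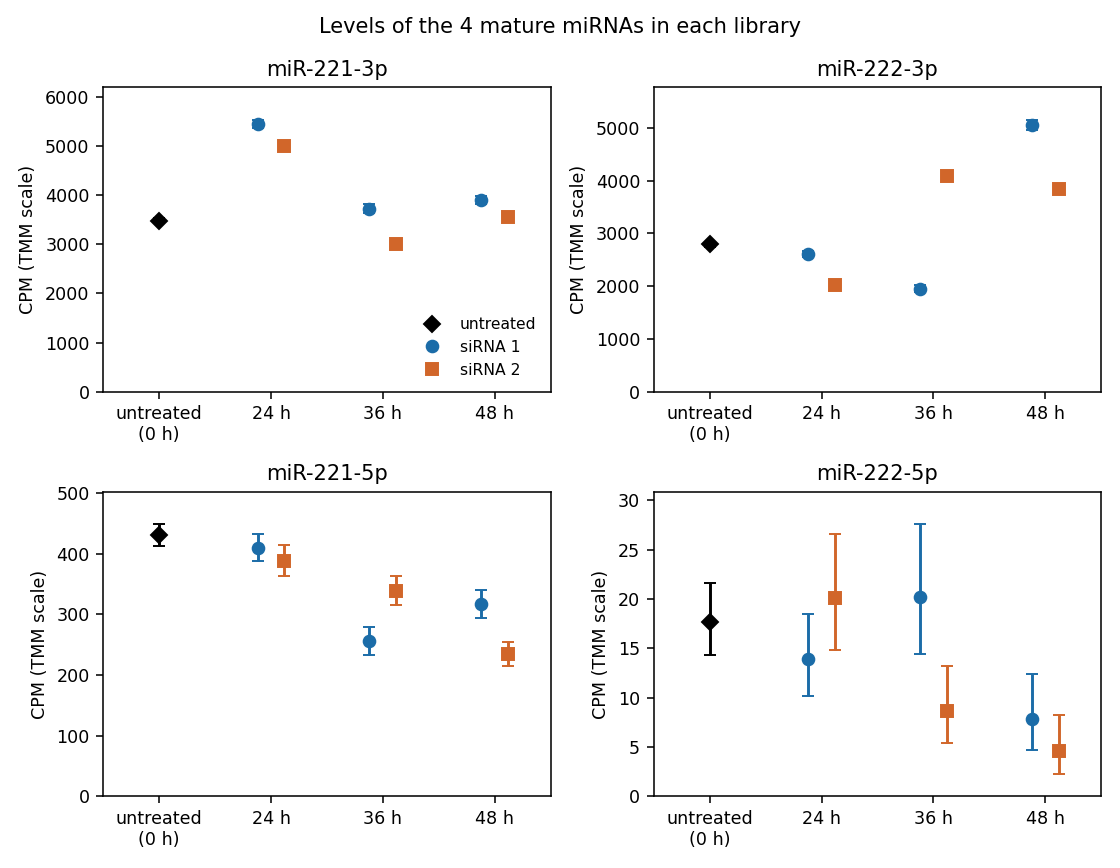
CPM of each mature miRNA (y axis, from 0) in the untreated library and at 24, 36 and 48 h (x axis), with circles for siRNA 1, squares for siRNA 2 and bars for 95% counting intervals. miR-221-3p is highest in the 24 h libraries (5450 and 4998 CPM), and miR-222-3p lies higher at 48 h (5060 and 3837 CPM) than at 24 h (2615 and 2024 CPM).

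The ratio of the guides, taken within each library, does not depend on how libraries are scaled. For each read of miR-221-3p there were 0.803 reads of miR-222-3p in untreated cells (interval 0.786 to 0.821). Under siRNA 1 the 24, 36 and 48 h libraries gave 0.480, 0.525 and 1.299. Under siRNA 2 the same times gave 0.405, 1.357 and 1.077. The libraries thus fell on either side of untreated: 3 below (both at 24 h and siRNA 1 at 36 h) and 3 above, none with an interval that reached 0.803. At 48 h the ratio was 2.71 times that at 24 h with siRNA 1 and 2.66 times with siRNA 2, a mean difference of 1.42 on the log2 scale. The 2 libraries of 48 h did not overlap with the 2 of 24 h, and the exact permutation test gave p = 0.333 (two-sided), the smallest that 2 against 2 allows. How often the ratios of other miRNA pairs did not overlap was not counted. Over all 6 siRNA-treated libraries the log2 ratio differed from untreated by -0.08 (-0.15 without the 36 h libraries), and the groups overlapped.

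**Figure D2:**
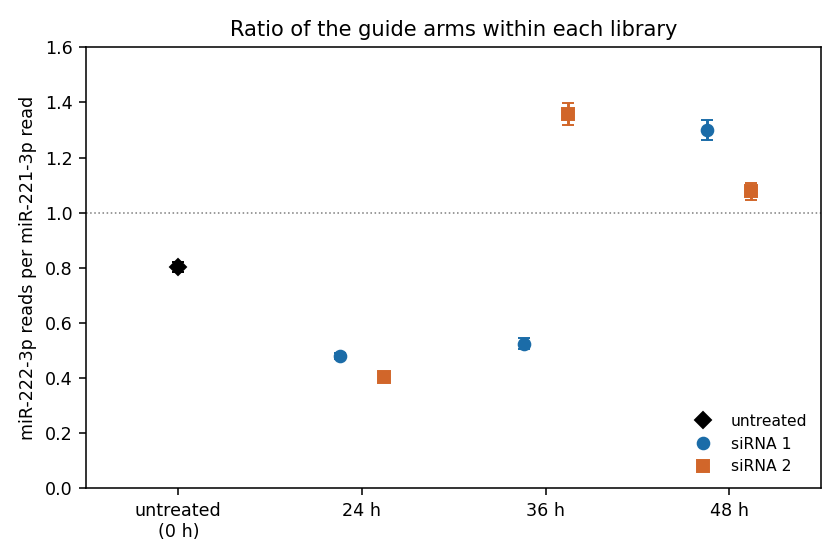
Reads of miR-222-3p per read of miR-221-3p (y axis) within each library, by time (x axis), with 95% exact intervals. Both 24 h libraries and siRNA 1 at 36 h lie between 0.405 and 0.525, the untreated library at 0.803, and both 48 h libraries and siRNA 2 at 36 h between 1.077 and 1.357.

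Since the guides share their seed, their sum was also followed. It stood at 6278 CPM in untreated cells. Successive siRNA 1 libraries held 8065, 5677 and 8953 CPM, and those of siRNA 2 held 7021, 7105 and 7399 CPM. Under siRNA the sum averaged 7370 ± 1100 CPM (SD, n = 6) and exceeded untreated cells in 5 of 6 cases, with 7021 to 8953 CPM at 24 and 48 h. From 24 to 48 h it was 1.11 and 1.05 times as high with siRNA 1 and siRNA 2, and the libraries of these times overlapped. On the TMM scale the opposite differences of the guides thus left the summed level of the seed within the spread of the libraries. Without TMM scaling, all 4 members together held 0.768% and 0.633% of miRNA reads at 24 h (siRNA 1 first). At 48 h they held 1.005% and 0.874%, both above the 24 h values, so the summed level depends on the scale.

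The passengers were lower at 48 h than at 24 h on the TMM scale. For miR-221-5p the siRNA 1 libraries held 409.8, 255.5 and 317 CPM in order of time, and the siRNA 2 libraries 388, 338.7 and 234 CPM. All 6 libraries lay below untreated on the TMM scale. The interval of siRNA 1 at 24 h, 388.5 to 432 CPM, overlapped that of untreated, 413 to 448.3 CPM. As a share of miRNA reads without TMM scaling, siRNA 2 at 36 h lay above untreated, and the 48 h and 24 h libraries overlapped. How many other miRNAs had all 6 libraries on 1 side of untreated was not counted. For miR-222-5p the siRNA 1 libraries held 13.9, 20.2 and 7.86 CPM (47, 40 and 18 reads), and those of siRNA 2 held 20.1, 8.66 and 4.59 CPM (48, 21 and 11 reads). Both 48 h libraries lay below the other 5, and the interval of siRNA 1 at 48 h, 4.66 to 12.4 CPM, overlapped that of siRNA 1 at 24 h, 10.2 to 18.5 CPM. The lowest value, 4.59 CPM, was above the 1.25 CPM that 3 reads, the limit a count of 0 allows, correspond to in that library.

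The arms of miR-222 stood further apart at 48 h than at 24 h. In untreated cells there were 158 reads of miR-222-3p for each read of miR-222-5p (interval 129 to 195). Under siRNA 1 the 24, 36 and 48 h libraries gave 188, 96.6 and 644 (the last 407 to 1087). Under siRNA 2 they gave 101, 472 and 836 (the last 467 to 1675). The passenger thus held 0.528% and 0.982% of the miR-222 reads at 24 h, and 0.155% and 0.119% at 48 h. The 48 h ratio was 3.42 times the 24 h ratio with siRNA 1 and 8.29 times with siRNA 2. The 48 h and 24 h libraries did not overlap (exact permutation p = 0.333, two-sided, the smallest possible). The share of other hairpins without such overlap was not counted.

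For miR-221 there were 8.09 reads of the 3p arm for each of the 5p arm in untreated cells (interval 7.75 to 8.45). The ratio was 13.3, 14.6 and 12.3 at 24, 36 and 48 h of siRNA 1, and 12.9, 8.90 and 15.2 with siRNA 2. The passenger share was 11% in untreated cells (interval 10.6% to 11.4%), 6.17% to 7.53% in 5 siRNA-treated libraries and 10.1% in siRNA 2 at 36 h. All 6 ratios lay above untreated, by 0.65 on the log2 scale on average (0.73 without the 36 h libraries). The interval of siRNA 2 at 36 h, 8.28 to 9.58, overlapped that of untreated. The exact permutation test gave p = 0.143 (two-sided), the smallest that 6 against 1 allows. How many other hairpins had all 6 libraries on 1 side of untreated was not counted. Between 24 and 48 h the libraries overlapped, with a difference of 0.06.

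**Figure D3:**
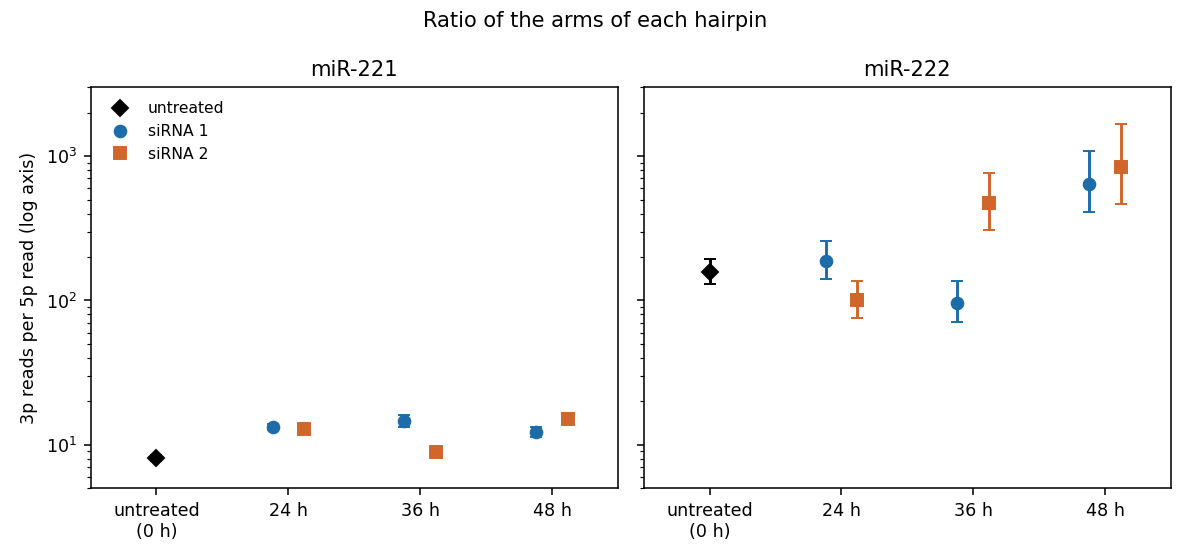
Reads of the 3p arm per read of the 5p arm (y axis, log scale) for each hairpin and library, with 95% exact intervals. For miR-222 the 48 h libraries (644 and 836) lie above the 24 h libraries (188 and 101), while for miR-221 the siRNA-treated libraries range from 8.90 to 15.2 and the untreated library lies at 8.09.

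This difference in arm balance was set beside that of other hairpins in a fit that was not planned but chosen with the values in view. It used limma on the log2 ratio of 3p to 5p reads, over the 110 miRNA names with a mean count of at least 10 in both arms. For 48 h against 24 h the log2 difference was 2.38 ± 0.76 (SE) for miR-222, in place 9 by size, with a limma adjusted p of 0.169. It was 0.06 ± 0.40 for miR-221 (adjusted p = 0.933), in place 106. The median size over all 110 was 0.70. None of the 110 passed (0%), and 20 had an unadjusted p under 0.05. Without both 36 h libraries miR-222 passed (2.38 ± 0.49, limma adjusted p = 1.81e-05). It was 1 of the 36 names called out of 114 (31.6%) in that fit. Errors and p-values without a 36 h library are too small if the spread between the 36 h libraries is real. The difference of miR-221 from untreated over all times, 0.65 ± 0.43, had a limma adjusted p of 0.890 and took place 41 of 110, beside a median size of 0.51. miR-222 also passed for 48 h against 24 h without siRNA 1 at 36 h (adjusted p = 3.47e-05) and without siRNA 2 at 36 h (1.38e-05).

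**Figure D4:**
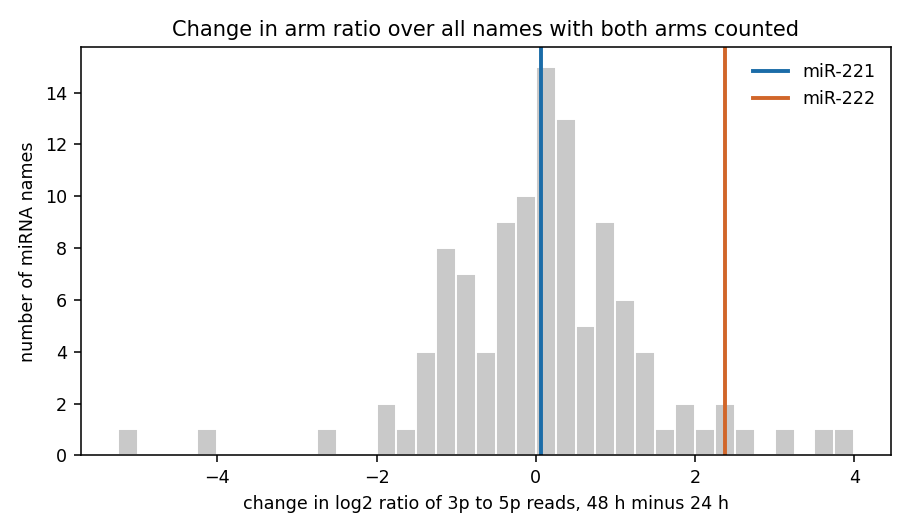
Histogram of the change in log2 ratio of 3p to 5p reads from 24 to 48 h over 110 miRNA names with both arms counted (y axis, number of names), with lines at miR-221 and miR-222. miR-222 lies at 2.38, near the right end, and miR-221 at 0.06.

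The question of how each member differed between conditions was then put to edgeR's quasi-likelihood test over all miRNAs averaging 10 reads or more, with Benjamini-Hochberg adjustment and a threshold of 0.05. None of the 458 passed in any comparison with untreated cells or between 48 and 24 h (0% each), and the members were among those that did not. At an unadjusted p under 0.05 there were 11, 19 and 53 for 24, 36 and 48 h against untreated and 84 for 48 h against 24 h. DESeq2 called 1 (0.218%), 7 (1.53%), 12 (2.62%) and 23 (5.02%) in these comparisons, and none was a member.

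The 48 h against 24 h comparison contrasts only siRNA-treated libraries and held the largest fitted change of miR-222-3p. miR-222-3p had a log2 fold change of 0.94 ± 0.39 (SE, edgeR adjusted p = 0.260, unadjusted 0.0462). For miR-222-5p it was -1.44 ± 0.58 (adjusted p = 0.258, unadjusted 0.0434). miR-221-3p stood at -0.49 ± 0.23 (adjusted p = 0.302) and miR-221-5p at -0.53 ± 0.29 (0.376). In the fit without both 36 h libraries miR-222-3p rose by 0.92 ± 0.21 (adjusted p = 9.54e-05) and miR-222-5p fell by 1.45 ± 0.47 (0.0100). miR-221-3p at -0.50 ± 0.21 (0.0524) and miR-221-5p at -0.55 ± 0.24 (0.0672) did not pass. So 2 of 4 members passed there, where 134 of 467 miRNAs (28.7%) did, 51 of them higher (10.9%) and 83 lower (17.8%). With total counts as the scale this split was 105 higher and 55 lower, and with a GC trend removed 71 and 60. Errors and p-values of that fit are too small if the spread between the 36 h libraries is real.

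These differences were read against the whole profile, which differed widely between the times. On the TMM scale, 280 of the 458 miRNAs (61.1%) had both 48 h libraries on 1 side of both 24 h libraries. These were 129 above (28.2%) and 151 below (33%), and all 4 members were among them. Without TMM scaling the libraries of these times overlapped for miR-221-5p. Its change was then -0.20 (edgeR with total counts, all 7 libraries, adjusted p = 0.721). The rise of miR-222-3p without the 36 h libraries held with total counts as the scale (1.27, adjusted p = 0.000214), with a GC trend removed (adjusted p = 0.000394) and with DESeq2 (0.98, 0.00031). With all reads as the scale it was 0.70 and did not pass (0.395). The fall of miR-222-5p without the 36 h libraries did not pass with total counts (-1.09, adjusted p = 0.0569) or DESeq2 (-1.41, 0.0714). It passed with all reads (-1.58, edgeR adjusted p = 0.0424) and with a GC trend removed (-1.30, 0.0291). For miR-221-3p the change from 24 to 48 h over all libraries was -0.15 with total counts (edgeR adjusted p = 0.728) and -0.69 with all reads (0.608). Without the 36 h libraries it was also -0.15 with total counts (0.634), so the size of this fall depends on the scale.

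Change from 24 to 48 h went with base composition over the 458 miRNAs (Spearman rho of log2 fold change with GC share 0.37, as a description). The members' GC shares are 47.8% for miR-221-3p, 36.4% for miR-221-5p and 52.4% for miR-222-3p. That of miR-222-5p lies between those of the guides, and miR-222-5p had the largest fall of the members (-1.44). With a linear GC trend removed in each library, the change of miR-222-3p was 0.99 and that of miR-222-5p -1.32. miR-221-3p stood at -0.29 and miR-221-5p, the member poorest in G and C, to -0.01. Mature length, which also differs between the guides, had a rho of -0.08 with the change. The part of base composition or length in the members' differences was not tested.

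Against untreated cells the members differed by time. At 24 h miR-221-3p had the largest difference, 0.59 ± 0.29 (SE, edgeR adjusted p = 0.997), beside -0.27 ± 0.47 for miR-222-3p, -0.11 ± 0.36 for miR-221-5p and -0.07 ± 0.65 for miR-222-5p. At 36 h the values were -0.05 ± 0.28 for miR-221-3p, 0.11 ± 0.47 for miR-222-3p, -0.53 ± 0.35 for miR-221-5p and -0.30 ± 0.65 for miR-222-5p (adjusted p from 0.946 to 0.997). On the TMM scale these 36 h means join libraries on opposite sides of untreated for both guides. At 48 h miR-222-3p stood at 0.67 ± 0.48 (0.534), miR-221-5p at -0.64 ± 0.35 (0.382) and miR-221-3p at 0.10 ± 0.28 (0.901). miR-222-5p had the lowest value of all (edgeR adjusted p = 0.367), with 6.22 ± 2.31 CPM (SD, n = 2) beside 17.7 CPM in untreated cells. Without both 36 h libraries miR-222-3p (0.71 ± 0.26, adjusted p = 0.0317) and miR-222-5p (-1.46 ± 0.53, 0.0279) passed at 48 h, where 25.1% of miRNAs did (9.64% higher, 15.4% lower). The call of miR-222-5p was lost there with total counts (edgeR adjusted p = 0.0878), a GC trend removed (0.0553) or DESeq2 (0.148), and that of miR-222-3p with all reads (-0.46, 0.508). No member passed at 24 h in that fit, where 2.78% did, or over both remaining times, where 10.7% did. Without siRNA 1 at 36 h both passed too (0.0475 each), and without siRNA 2 at 36 h miR-222-5p passed (0.0208) and miR-222-3p did not (0.0575).

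Direction against untreated depends on the scale, because miRNA reads were a smaller part of the siRNA-treated libraries. The median log2 fold change of all miRNAs over the 3 times was -0.05, but -1.13 with all reads as the scale and 0.19 with total miRNA counts. On the all-reads scale 118 miRNAs passed at 48 h in the fit of 7 libraries, 115 of them lower, miR-221-5p (-1.77, edgeR adjusted p = 0.0445) and miR-222-5p (-2.63, 0.0103) among them. Per 1000000 reads of all kinds, miR-222-3p stood at 1049 in untreated cells, 628 and 310.4 at 24 h, 270.2 and 755 at 36 h, and 831 and 696 at 48 h (siRNA 1 first). Every siRNA-treated library was then below untreated, and the 48 h libraries were still above those of 24 h. miR-221-3p stood at 1305 in untreated cells, 1309 and 767 at 24 h, 515 and 556 at 36 h, and 639.8 and 646 at 48 h.

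**Figure D5:**
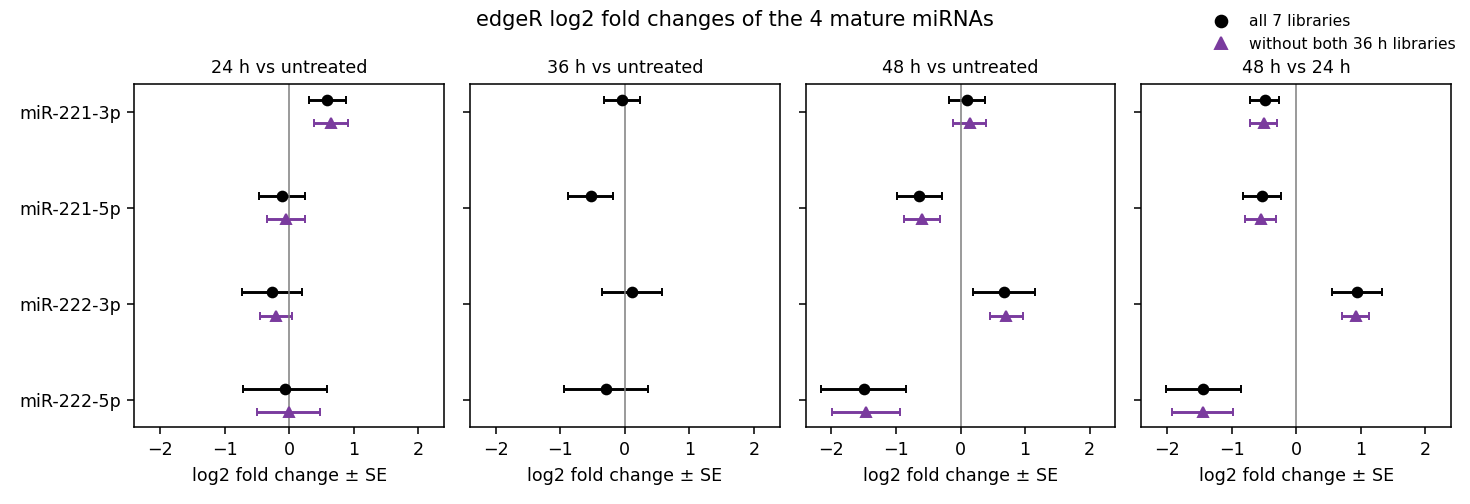
log2 fold changes with standard errors (x axis) of the 4 mature miRNAs (y axis) in 4 comparisons by edgeR, with circles for the fit of all 7 libraries and triangles for the fit without both 36 h libraries. miR-222-3p (0.94) and miR-222-5p (-1.44) lie on opposite sides of 0 for 48 h against 24 h, and both miR-221 arms lie below 0.

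Over the 3 times together, log2 fold changes against untreated were 0.21 ± 0.25 (SE) for miR-221-3p, 0.17 ± 0.42 for miR-222-3p, -0.43 ± 0.31 for miR-221-5p and -0.62 ± 0.55 for miR-222-5p (edgeR adjusted p from 0.900 to 0.916). Without the 36 h libraries they were 0.40 ± 0.24, 0.25 ± 0.24, -0.32 ± 0.26 and -0.74 ± 0.45 in the same order of miRNAs (edgeR adjusted p from 0.353 to 0.639). The siRNAs were compared over the 6 treated libraries with time as a factor. None of 435 miRNAs passed (0%), with 6 at an unadjusted p under 0.05 by edgeR and 0 called by DESeq2. For all times together DESeq2 called 1 miRNA (0.218%), which was no member. The members' differences, siRNA 2 minus siRNA 1, were -0.16 ± 0.21 for miR-221-3p, -0.01 ± 0.27 for miR-221-5p, 0.12 ± 0.34 for miR-222-3p and -0.42 ± 0.52 for miR-222-5p. At 36 h alone, miR-222-3p was 4090 CPM with siRNA 2 against 1954 CPM with siRNA 1, while at 24 and 48 h it was the lower with siRNA 2.

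The members did not share 1 profile over the 7 libraries. As a description of log2 CPM, Pearson's r was -0.48 between the guides, -0.84 between the arms of miR-222 and 0.40 between the arms of miR-221. Among miRNAs averaging at least 100 reads, those most like miR-222-3p were miR-132-5p (r = 0.98), miR-192-5p (0.97), miR-128-3p (0.94), miR-99a-5p (0.93) and miR-149-5p (0.93). Most like miR-221-3p were miR-1843 (0.92), miR-34a-5p (0.81), let-7d-5p (0.79), miR-32-3p (0.77) and miR-454-3p (0.77). For miR-221-5p they were miR-7974 (0.93), miR-106b-3p (0.90), miR-7-5p (0.90), let-7i-5p (0.84) and miR-30d-3p (0.84). All these rest on the same 7 libraries, with 1 CPM scale. For example, miR-128-3p held 3833 and 3816 CPM in the 24 h libraries, and 7779 and 7165 CPM in those of 48 h.

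Other miRNAs encoded on the short arm of the X chromosome, the CLCN5 intronic group and the miR-98 and let-7f-2 hairpins, were set beside the cluster for 48 h against 24 h. Of 18 listed, 15 were tested and 0 passed over all 7 libraries (median -0.62, beside 0.03 for all tested miRNAs). Without the 36 h libraries 6 fell and 0 rose, miR-98-5p (-0.73 ± 0.21 SE, edgeR adjusted p = 0.00324), miR-362-5p (-0.95 ± 0.32, 0.0129) and miR-532-5p (-0.53 ± 0.21, 0.0454) among them, and 1 fell with total counts or all reads as the scale. Over all 467 miRNAs of that fit 83 fell (17.8%) and 51 rose (10.9%), against 55 and 105 with total counts and 52 and 7 with all reads, and the counts of the other lists are read against the same shares. Of 17 tested miRNAs known as raised in liver cancer 0 passed over all 7 libraries (median -0.55). Without the 36 h libraries 9 of these fell and 1 rose, against 6 and 1 with total counts and 4 and 0 with all reads. Of 14 tested miRNAs known as lowered in liver cancer 0 passed (median 0.19), and without the 36 h libraries 4 of 13 rose and 3 fell, against 5 and 2 with total counts and 0 and 2 with all reads.

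Marker miRNAs of other cell types were in part high in the same libraries as miR-222-3p. The blood list summed to 14.2 CPM in untreated cells, 14.2 and 15.1 CPM at 24 h, 24.8 and 76.7 CPM at 36 h and 45.0 and 35.0 CPM at 48 h. Nearly all of it was miR-451a, and miR-223-3p was at 0 in all 7 libraries. The fibroblast and smooth muscle list summed to 165 CPM in untreated cells, 204.5 and 171 CPM at 24 h, 765 and 730.1 CPM at 36 h and 466 and 399 CPM at 48 h. It was mostly miR-143-3p, with miR-214-3p at 0 in 5 of the 7 libraries. The endothelial list, of miR-126-3p and miR-126-5p, summed to 295 CPM in untreated cells and 239 to 438 CPM after treatment. The muscle list reached 876 CPM in siRNA 1 at 36 h and at most 52.8 CPM in the other 6 libraries. The neuron list summed to 34.3 to 51.4 CPM with miR-124-3p at 0 in all 7. The part of these cells in the levels of miR-221 and miR-222 was not tested.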

How the data were processed

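Each library has 1 deposited file of unnormalised counts, with the name and sequence of every mature miRNA. Their 5 summary lines stayed out of library sizes and tests. Per the labels' protocols, column-purified total RNA was ligated into libraries with a small RNA kit from NEB. Which aligner, counter and build were used is not given in the sources used here. The share without a feature was 56.9% in untreated cells and 73.5% to 86.6% elsewhere.

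edgeR 4.0.16 (R 4.3.3) was run with TMM factors and the quasi-likelihood test on miRNAs averaging 10 reads or more. Untreated cells and the 3 times were groups of 1 fit, in which the single untreated library takes its spread from the other groups. siRNA 2 against siRNA 1 used the 6 treated libraries with time as a factor. The SE of a log2 fold change was set so that (change/SE) squared is the F statistic. Alternatives were DESeq2 1.42.0, its size factors, total counts, all reads, no filter, a mean count of 50, libraries left out and the siRNA number as a block. Fits with a GC trend removed, those that join another scale or DESeq2 to the loss of the 36 h libraries, and the arm ratios by limma 3.58.1 (0.5 added to each count) were chosen after seeing the data. The scripts were tested on simulated counts.

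The members, lists and planned fits were chosen with earlier results of these data known. The miRNAs named beside the members are, for each member with a mean count of at least 100, the 5 with the highest Pearson r of log2 CPM (prior count 2), and examples of the lists. Nothing says that libraries came from separate cultures, so p-values reflect spread that may be technical.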

Additional observations from a re-analysis of the deposited data

Results flagged for a closer look

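At 36 h, on the TMM scale, the siRNAs placed both guides on opposite sides of the untreated library, with counting intervals that did not meet it. miR-222-3p was at 1954 CPM under siRNA 1 and 4090 CPM under siRNA 2, around 2797 CPM in untreated cells, a log2 difference of 1.07. miR-221-3p stood at 3722 and 3014 CPM, around 3481 CPM, a log2 difference of -0.30. Each value is 1 library, so the difference between the siRNAs at 36 h was not tested. The muscle marker miR-1-3p also differed between these libraries, at 867 and 52.4 CPM, and its part in the difference was not tested.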

How the results depend on the processing

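Counts of miRNAs called are given in the order all times, 24 h, 36 h and 48 h against untreated and 48 h against 24 h, where 0 passed in each. DESeq2 called 1, 1, 7, 12 and 23, all reads as the scale 120, 2, 49, 118 and 29, and no count filter 12, 2, 10, 39 and 51. Leaving out 1 library gave 0 to 65, 0 to 14, 0 to 91, 0 to 113 and 0 to 131, with calls only where a 36 h library was left out: 65, 5, 91, 94 and 122 without siRNA 1 and 31, 14, 14, 113 and 131 without siRNA 2. Without both (36 h then has no value) they were 50, 13, 117 and 134, and with total counts 27, 7, 115 and 160, with all reads 196, 8, 185 and 59, with the GC trend removed 35, 7, 95 and 131, and with DESeq2 26, 4, 77 and 102. For siRNA 2 against siRNA 1 every alternative run gave 0. The siRNA number as a replicate block gave 0 in each comparison (miR-222-3p 0.94 and miR-222-5p -1.52 for 48 h against 24 h). By the labels, same-numbered libraries share the siRNA. Differences of siRNA 2 minus siRNA 1 correlated at 0.10 between 24 and 36 h, -0.25 between 24 and 48 h and -0.16 between 36 and 48 h. Whether same-numbered libraries also share a culture or batch cannot be told from these values. Of the members' log2 fold changes, 363 kept direction and side of the threshold, 27 newly passed and 40 turned direction, and the cause was not tested. With all reads, without and with the 36 h loss, miR-221-3p turned to -0.88 and -0.68 over all times, -0.33 and -0.33 at 24 h and -1.02 and -1.02 at 48 h, and miR-222-3p to -0.88 and -0.81 over all times and -0.46 and -0.46 at 48 h. At 36 h miR-221-3p turned to 0.03 with DESeq2 or its size factors, 0.28 with total counts and 0.10 with the GC trend removed, miR-222-3p to -1.03 with all reads and -0.01 with no filter, and miR-222-5p to 0.01 with total counts. miR-221-5p turned to 0.02 for 48 h against 24 h without 36 h and with the GC trend removed. For siRNA 2 against siRNA 1, miR-221-5p turned to 0.02 with total counts and 0.23 with the GC trend removed. Without both 36 h libraries miR-222-3p turned to -0.28 (-0.39 with total counts, -0.64 all reads, -0.34 GC trend removed, -0.35 DESeq2) and miR-222-5p to 0.10 (0.05 GC trend removed). Leaving out 1 library gave ranges across 0 for miR-222-3p over all times (-0.04 to 0.34), miR-222-5p at 24 h (-0.36 to 0.18), and at 36 h miR-221-3p (-0.17 to 0.09), miR-222-3p (-0.52 to 0.58) and miR-222-5p (-0.99 to 0.19). For siRNA 2 against siRNA 1 the ranges were -0.21 to 0.21 for miR-221-5p, -0.34 to 0.40 for miR-222-3p and -0.98 to 0.09 for miR-222-5p, and for the arm ratio of miR-221 from 24 to 48 h -0.09 to 0.21. With a mean count of 50 miR-222-5p was not tested.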
